A study of Mus musculus with 8 samples.

Results

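The genes Pou5f1, Sox2, Nanog, Sall4 and Sall1 encode 5 transcription factors of pluripotent cells, and their rows were taken from each count file by Ensembl ID, which found all 5 among 54446 genes. OCT4, the product of Pou5f1, binds DNA through a POU domain, often beside SOX2, an HMG-box protein, on a composite element. NANOG, a homeodomain protein, binds many of the same enhancers, and the zinc-finger proteins SALL4 and SALL1 associate with these factors in embryonic stem cells. Together they are known for holding such cells in the undifferentiated state, and both too much and too little OCT4 is known to make stem cells differentiate.

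Nuclear RNA was sequenced from C57BL/6 mouse embryonic stem cells. METTL3, the catalytic subunit, and METTL14, its partner, form the complex that writes N6-methyladenosine on RNA. The groups were Mettl14 cKO (conditional knockout), Mettl14 control, Mettl3 cKO and Mettl3 control, with 2 libraries each and 8 in all. Every group was grown in medium with 15% fetal bovine serum, LIF at 1000 U/ml, the GSK3 inhibitor CHIR99021 at 3 µM and the MEK inhibitor PD0325901 at 1 µM. Which exons were removed, what drove the recombinase and how long before sampling it acted is not given in the sources used here. No label says whether libraries of one group stem from different cultures; if they do not, the p-values reflect technical spread alone.

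Total counts ran from 17235889 to 20086128 per library. Levels are given as CPM, counts relative to the library size after TMM scaling, and as CPM per kb of exon where genes are compared. Mettl14 averaged 29.0 ± 1.72 CPM in Mettl14 cKO and 56.6 ± 2.34 CPM in Mettl14 control (SD, n = 2 each). In the other line it averaged 29.2 CPM in Mettl3 cKO and 28.4 CPM in Mettl3 control, close to its level in Mettl14 cKO. Mettl3 averaged 19.2 ± 0.894 CPM in Mettl3 cKO and 37.0 ± 1.29 CPM in Mettl3 control (SD, n = 2 each). Its average was 42.6 CPM in Mettl14 cKO and 42.0 CPM in Mettl14 control. All of 6 stem cell markers (Esrrb, Zfp42, Tdgf1, Fgf4, Dppa5a and Lin28a) had counts in every group, with sums of 1620 to 1631 CPM in Mettl14 cKO, 1876 to 1883 in Mettl14 control, 683 to 686 in Mettl3 cKO and 763 to 770 in Mettl3 control. Fibroblast markers also had counts, for 21 of 21 genes in every group, with sums of 6466 to 6492 CPM in Mettl14 cKO, 4301 to 4312 in Mettl14 control, 17519 to 17692 in Mettl3 cKO and 15346 to 15792 in Mettl3 control. In these bulk samples fewer stem cells and less RNA per cell cannot be told apart, and the part of other cells in the results below was not tested.

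The start regions of the genes for OCT4, SOX2 and NANOG are shown because these genes are known to be bound by their own products. The windows are from RefSeq (GRCm38.p6, plus strand), span 250 bases before to 50 bases after an annotated start, and are printed 5′ to 3′. Windows were matched for 4 of the 5 genes, and where a gene had several, the first annotated start is shown. Capitals mark matches on either strand to the OCT-SOX composite element (CATTGT, any base, then the octamer core), to ATGCAAA (the octamer core itself, which lies within that element), GGGCGG (a GC box) and AGGTCA (a nuclear receptor half-site).
Pou5f1 (chr17:35505782-35506081): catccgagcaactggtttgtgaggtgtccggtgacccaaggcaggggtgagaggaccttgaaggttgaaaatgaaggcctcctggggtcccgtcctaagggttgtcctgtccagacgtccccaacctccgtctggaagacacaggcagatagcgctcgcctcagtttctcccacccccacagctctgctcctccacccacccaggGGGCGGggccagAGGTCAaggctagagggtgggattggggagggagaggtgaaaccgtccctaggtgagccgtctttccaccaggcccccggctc
Sox2 (chr3:34649745-34650044): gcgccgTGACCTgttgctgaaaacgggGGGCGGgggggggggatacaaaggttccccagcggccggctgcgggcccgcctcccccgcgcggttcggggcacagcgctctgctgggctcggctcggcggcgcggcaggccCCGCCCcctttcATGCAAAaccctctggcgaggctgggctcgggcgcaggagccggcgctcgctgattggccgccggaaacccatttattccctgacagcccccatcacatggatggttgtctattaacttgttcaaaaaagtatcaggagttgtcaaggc
Nanog (chr6:122707239-122707538): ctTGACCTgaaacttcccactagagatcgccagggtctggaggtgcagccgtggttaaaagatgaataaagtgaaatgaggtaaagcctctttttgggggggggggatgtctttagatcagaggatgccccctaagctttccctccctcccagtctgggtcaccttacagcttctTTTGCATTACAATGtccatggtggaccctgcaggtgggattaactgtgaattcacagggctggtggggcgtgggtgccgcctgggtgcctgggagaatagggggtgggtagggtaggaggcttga

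The Nanog window held the composite element on the minus strand, with its first base at position -75 relative to the start. Of 32851 windows of this length, 2 held that element (0.00609%), and both were overlapping windows of Nanog itself, at the same site. Apart from the any-base position the match was exact. Elements with other letters were not counted, so the share does not tell how rare such elements are. The Sox2 window held an octamer core at position -99, a motif found in 4.63% of windows, and GC boxes at positions -223 and -111. This window ends at 34650044, before the gene start of 34650405 given for Sox2 below, so its positions refer to the RefSeq start. The Pou5f1 window held a GC box at position -45 and a nuclear receptor half-site at position -33, found in 35.7% and 16.3% of windows. The Sox2 and Nanog windows held the half-site on the minus strand, at positions -244 and -248. Of the windows matched to Sall1, none held the composite element or the octamer core. These matches are descriptions of letters and not of binding.

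Pou5f1 and Sox2 showed the largest falls of the 5 genes in Mettl14 cKO, to 43.0% and 26.0% of the Mettl14 control level. Nanog and Sall1 fell by less, and Sall4 did not pass the test. In Mettl3 cKO, Pou5f1 rose, Nanog fell, and Sox2, Sall4 and Sall1 did not pass the test. Calls rest on edgeR's quasi-likelihood test over 21782 genes, with Benjamini-Hochberg adjustment and a threshold of 0.05. In Mettl14 cKO 4 of the 5 genes were called, all lower, where 40.4% of all tested genes were called, 18.0% higher and 22.4% lower. Among the 10099 abundant genes, whose log2 CPM averaged 3 or more as did that of all 5 members, 66.6% were called, 25.7% higher and 40.9% lower. In Mettl3 cKO 2 of the 5 were called, 1 higher and 1 lower. There 20.9% of all tested genes were called, 15.1% higher and 5.78% lower, and 36.7% of the abundant genes, 29.6% higher and 7.05% lower. Most abundant genes were called in the Mettl14 comparison, so the count of members called in either direction is near that background. The 4 called members were all lower, beside the 40.9% of abundant genes called lower.

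**Figure D1:**
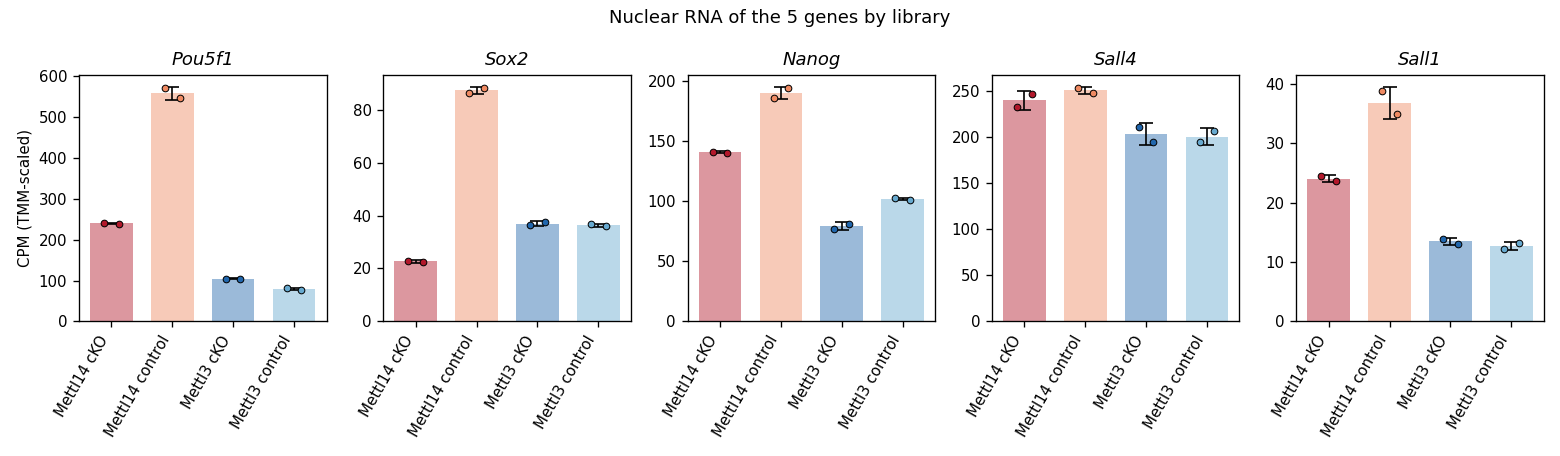
CPM (vertical axis, from 0, a separate scale per gene) of the 5 genes in Mettl14 cKO, Mettl14 control, Mettl3 cKO and Mettl3 control; points are libraries, bars are means and error bars are SD over 2 libraries. The mean of each of the 5 genes is highest in Mettl14 control, at 559 CPM for Pou5f1 and 87.2 CPM for Sox2. Sall4 lies between 194 and 253 CPM in all 8 libraries.

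Pou5f1 (ENSMUSG00000024406.16) lies on chromosome 17 at 35506018 to 35510772, plus strand, in mm10, with 2248 bases of exon. It had 241 and 240 CPM in Mettl14 cKO, against 571 and 548 CPM in Mettl14 control. It had 105 and 103 CPM in Mettl3 cKO, against 81.6 and 77.8 CPM in Mettl3 control. Both Mettl14 cKO libraries were below both of their controls, and both Mettl3 cKO libraries were above theirs. On the log2 scale Pou5f1 fell by 1.22 ± 0.03 in Mettl14 cKO (SE, n = 2 against 2, adjusted p = 1.6e-73 in edgeR's test) and rose by 0.39 ± 0.04 in Mettl3 cKO (adjusted p = 2.5e-15). Its fall was the 71st lowest of the 10099 abundant genes in the Mettl14 comparison. The antisense transcript Gm19553 shares 317 exon bases with it and had 0.531 to 0.832 CPM. Pseudogene copies, 5 in number, had 0 to 8 counts a library; how reads shared with them were treated is not given in the sources used here.

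Sox2 (ENSMUSG00000074637.7, chromosome 3, 34650405 to 34652461, plus strand) has a single exon of 2057 bases. It had 22.9 and 22.4 CPM in Mettl14 cKO, against 86.2 and 88.3 CPM in Mettl14 control. It had 36.2 and 37.6 CPM in Mettl3 cKO, against 36.7 and 35.9 CPM in Mettl3 control. The Mettl14 groups stood well apart, and the Mettl3 groups overlapped. Sox2 fell by 1.95 ± 0.06 on the log2 scale in Mettl14 cKO (SE, adjusted p = 7.3e-59), the 12th lowest value of the abundant genes. Its value in Mettl3 cKO was 0.03 ± 0.06 (SE, adjusted p = 0.83), with a 95% interval of -0.10 to 0.15, and its sign turned with the scaling of the libraries. Sox2 lies within an intron of the noncoding gene Sox2ot, on the same strand and with no shared exon base, which had 5.86 to 9.97 CPM.

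Nanog (ENSMUSG00000012396.12, chromosome 6, 122707489 to 122714633, plus strand) was lower in both knockouts. It had 141 and 141 CPM in Mettl14 cKO, against 186 and 194 CPM in Mettl14 control. It had 76.9 and 81.5 CPM in Mettl3 cKO, against 102 and 101 CPM in Mettl3 control. Neither pair of groups overlapped. The log2 fold change was -0.43 ± 0.04 in Mettl14 cKO (SE, adjusted p = 1.1e-20) and -0.36 ± 0.04 in Mettl3 cKO (adjusted p = 1.5e-12). With library-total scaling the Mettl14 value was -0.23 and the Mettl3 value was -0.45, both still called. Among abundant genes the Mettl14 value was the 1710th lowest of its comparison, and the Mettl3 value was the 121st lowest. Of 4 genes with sequence in common that GENCODE types as pseudogenes, Nanog-ps1 and Nanog-ps2 had at most 3 counts, Gm11346 had at most 15 and Zfp783 had 98 to 257.

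Sall4 (ENSMUSG00000027547.17, chromosome 2, 168748332 to 168767943, minus strand) had 232 and 247 CPM in Mettl14 cKO, against 253 and 248 CPM in Mettl14 control. It had 211 and 194 CPM in Mettl3 cKO, against 194 and 206 CPM in Mettl3 control. The SD within a group was 3.78 to 11.7 CPM. The Mettl14 groups came within a few CPM of each other without overlapping, and the Mettl3 groups overlapped. Its log2 fold change was -0.07 ± 0.03 in Mettl14 cKO (SE, adjusted p = 0.12), with a 95% interval of -0.13 to 0.00280. With libraries scaled by their totals alone this value was 0.14 (adjusted p = 0.0012), and with RLE scaling it was -0.09 (adjusted p = 0.023), so neither its sign nor its call held across scalings. Without Mettl14 cKO replicate 2 it was -0.12 (adjusted p = 0.012). In Mettl3 cKO it was 0.02 ± 0.03 (SE, adjusted p = 0.77). Gm14261, on the opposite strand, shares 526 exon bases with Sall4 and had 0.128 to 1.03 CPM.

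Sall1 (ENSMUSG00000031665.7, chromosome 8, 89027235 to 89044162, minus strand) had the lowest level per kb of the 5 genes in every group. It had 24.4 and 23.6 CPM in Mettl14 cKO, against 38.8 and 34.9 CPM in Mettl14 control. It had 13.9 and 13.1 CPM in Mettl3 cKO, against 12.3 and 13.2 CPM in Mettl3 control. The Mettl14 groups did not overlap, and the Mettl3 groups did. Sall1 fell by 0.62 ± 0.08 on the log2 scale in Mettl14 cKO (SE, adjusted p = 6.2e-11). The Mettl3 cKO value was 0.08 ± 0.10 (SE, adjusted p = 0.64, 95% interval -0.12 to 0.29).

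The effect of the Mettl14 knockout differed from that of the Mettl3 knockout for 3 of the 5 genes, each with a lower value for the Mettl14 knockout. In this comparison 33.2% of all tested genes were called and 20.5% were called lower (55.0% and 40.2% of the abundant genes). The share of the 5 genes called was thus near that of the abundant genes. The Mettl14 change minus the Mettl3 change was -1.61 ± 0.05 on the log2 scale for Pou5f1 (SE, edgeR's test, adjusted p = 1.2e-61). It was -1.97 ± 0.09 for Sox2 (adjusted p = 2.8e-42) and -0.70 ± 0.13 for Sall1 (adjusted p = 4.1e-06). For Nanog it was -0.07 ± 0.06 (adjusted p = 0.38, 95% interval -0.18 to 0.04), and for Sall4 -0.08 ± 0.05 (adjusted p = 0.19, 95% interval -0.18 to 0.01). These differences of Nanog and Sall4 rested on the processing in sign and call. With library-total scaling they were 0.22 (adjusted p = 0.00061) for Nanog and 0.21 (adjusted p = 0.0011) for Sall4, and with no filter on low counts -0.18 (adjusted p = 0.019) and -0.19 (adjusted p = 0.0007). Without replicate 2 of any single group the Sall4 difference was -0.18 to -0.14 and was called.

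**Figure D2:**
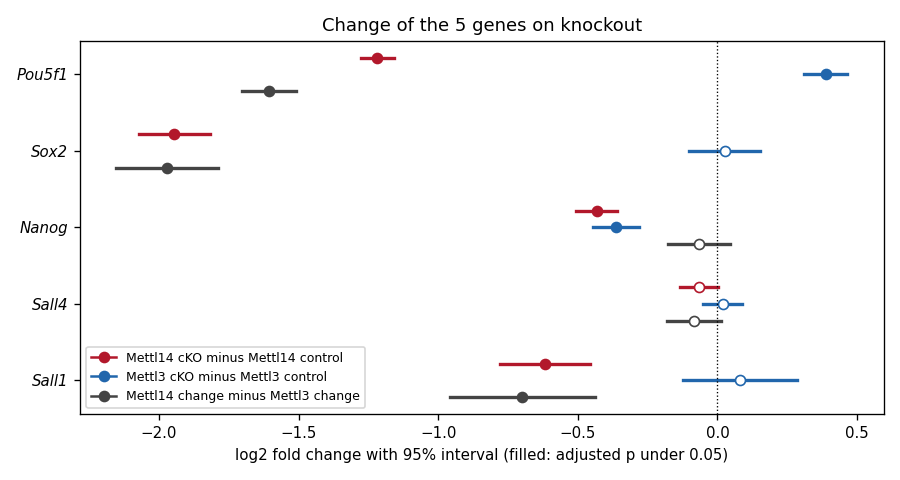
Log2 fold change (horizontal axis) of each gene in Mettl14 cKO minus Mettl14 control (red), Mettl3 cKO minus Mettl3 control (blue), and the difference between these changes (grey), with 95% intervals; filled points have an adjusted p under 0.05. Pou5f1 lies at -1.22 and 0.39 in the knockouts, on opposite sides of 0, while the Nanog values lie at -0.43 and -0.36.

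**Figure D3:**
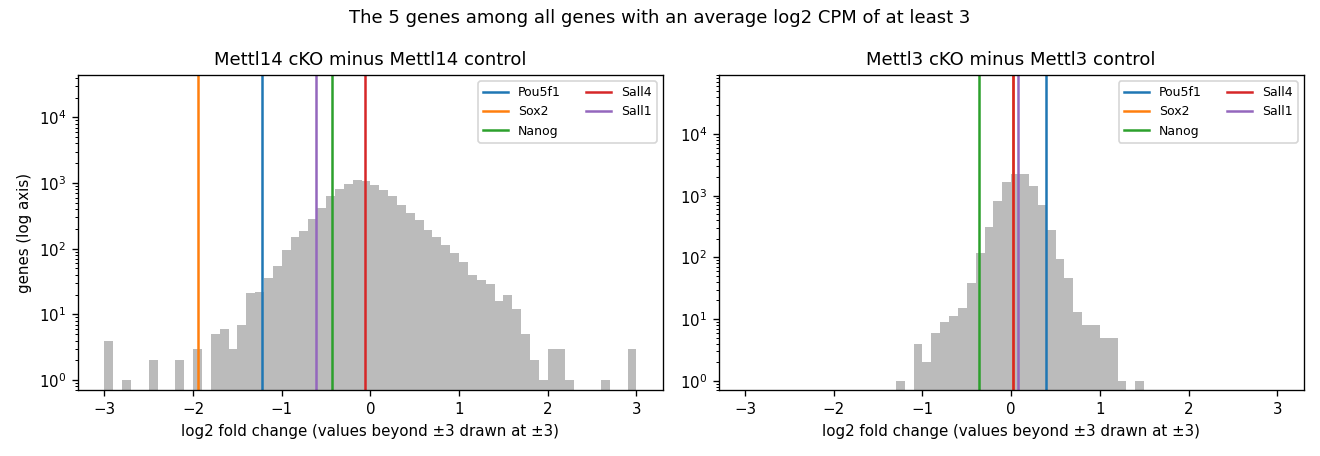
Number of abundant genes (log2 CPM averaging 3 or more, vertical log axis) by log2 fold change in steps of 0.1, for each knockout minus its control, with lines at the 5 genes. Sox2 and Pou5f1 lie in the lower tail of the Mettl14 comparison, and Nanog and Pou5f1 lie at 121st from the lowest and 519th from the highest in the Mettl3 comparison.

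The control groups also differed. All 5 genes were higher in Mettl14 control than in Mettl3 control, where 67.8% of all tested genes were called, 33.6% higher and 34.1% lower. Of the abundant genes 83.7% were called, 57.9% higher and 25.9% lower. The log2 difference was 2.81 ± 0.03 for Pou5f1 (SE, edgeR's test, adjusted p = 7.1e-112), a 7.02-fold higher level. It was 1.53 ± 0.09 for Sall1, 1.27 ± 0.06 for Sox2, 0.90 ± 0.04 for Nanog and 0.32 ± 0.03 for Sall4 (SE). The median of the abundant genes was 0.30, and 51.4% of them had a lower value than Sall4, which was thus near their middle. Only the Sall4 value turned negative with library-total scaling, to -0.13, among the alternatives run for these 5 differences. After the Mettl14 knockout, Pou5f1 at 240 CPM on average was still above the 79.7 CPM of Mettl3 control, whereas Sox2 at 22.7 CPM was below the 36.3 CPM of Mettl3 control. Fibroblast markers ran the other way between the controls: 18 of 20 tested were lower in Mettl14 control and 1 was higher.

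Per kb of exon, the order within the Mettl14 groups was Pou5f1, Nanog, Sall4, Sox2, Sall1. In Mettl14 cKO the means were 107, 62.9, 43.3, 11.01 and 4.56 CPM per kb, and in Mettl14 control 248.8, 84.8, 45.3, 42.4 and 6.998 CPM per kb. Sall4 and Sox2, neighbours in Mettl14 control, did not overlap there. In Mettl3 cKO Pou5f1 led at 46.4 CPM per kb, followed by Sall4 at 36.6 ± 2.12 and Nanog at 35.3 ± 1.43 (SD, n = 2), which overlapped, then Sox2 at 17.96 and Sall1 at 2.56. In Mettl3 control Nanog led at 45.5 CPM per kb, followed by Sall4 at 36.2 ± 1.61 and Pou5f1 at 35.4 ± 1.19 (SD, n = 2), which overlapped, then Sox2 at 17.6 and Sall1 at 2.42. The place of Pou5f1 therefore differed between the Mettl3 groups, first in Mettl3 cKO and overlapping Sall4 in Mettl3 control. Divided by whole gene length instead, the order stayed in Mettl14 cKO and changed in the other groups. Whether reads in introns were counted is not given in the sources used here. Sox2 has 2057 bases by both measures, while Sall4 goes from 5536 to 19612 and Nanog from 2242 to 7145. The longer divisor lowers Sall4 and Nanog relative to Sox2 whatever the reads, so the change of order cannot tell which length is apt.

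Ratios within a library do not depend on its scaling. Pou5f1 counts were 104% and 97.0% of Sall4 counts in Mettl14 cKO, against 225% and 221% in Mettl14 control. They were 49.8% and 53.1% in Mettl3 cKO, against 42.1% and 37.7% in Mettl3 control. The Sox2 counts were 9.88% and 9.06% of Sall4 counts in Mettl14 cKO, against 34.0% and 35.6% in Mettl14 control. The Sox2 ratios were 17.2% and 19.4% in Mettl3 cKO, against 18.9% and 17.4% in Mettl3 control, and overlapped. Per kb, Pou5f1 stood at 9.62 and 9.80 times Sox2 in Mettl14 cKO, against 6.06 and 5.68 times in Mettl14 control. The same ratio was 2.66 and 2.51 in Mettl3 cKO, against 2.03 and 1.98 in Mettl3 control. On this ratio both libraries of each knockout lay above both of their controls. Per kb, Pou5f1 stood at 1.70 and 1.70 times Nanog in Mettl14 cKO, against 3.05 and 2.82 times in Mettl14 control. That ratio was 1.36 and 1.26 in Mettl3 cKO, against 0.794 and 0.765 in Mettl3 control. It was thus lower than in control in the Mettl14 knockout and higher in the Mettl3 knockout.

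**Figure D4:**
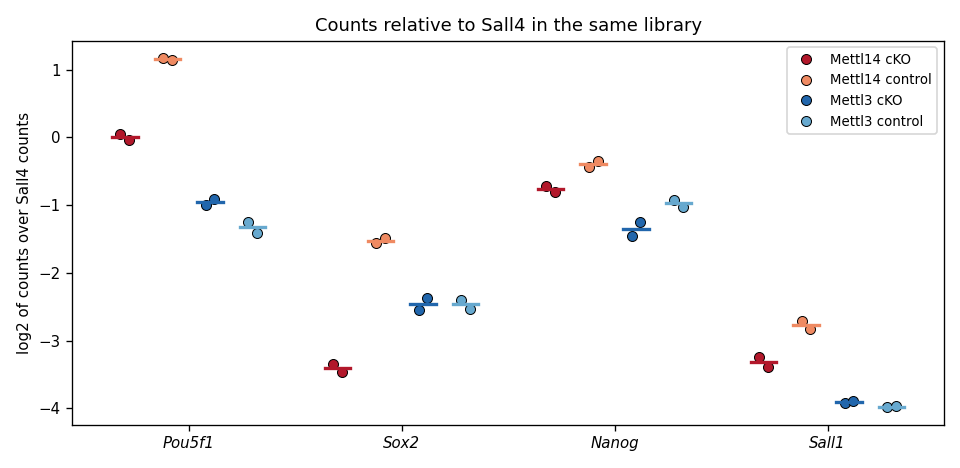
Log2 of the counts of Pou5f1, Sox2, Nanog and Sall1 over the Sall4 counts of the same library (vertical axis); points are the 2 libraries of a group and lines are means. Pou5f1 and Sox2 are lower in Mettl14 cKO than in Mettl14 control, and Pou5f1 is higher in Mettl3 cKO, at 49.8% and 53.1% of Sall4, than in Mettl3 control, at 42.1% and 37.7%.

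Genes known as protein partners, NuRD subunits or targets of these factors were lower in Mettl14 cKO more often than higher. Over 63 such genes, each counted once and all tested, 52 fell and 7 rose in Mettl14 cKO, with a median log2 fold change of -0.37, against 0.03 over all tested genes and -0.08 over the abundant genes. In Mettl3 cKO 20 fell and 12 rose, with a median of -0.04, against 0.03 over all tested genes and 0.09 over the abundant genes. Of the 63 genes 60 were abundant, a class in which 40.9% of genes were called lower and 25.7% higher in Mettl14 cKO, and 7.05% lower and 29.6% higher in Mettl3 cKO. Library-total scaling, which moved the median of all genes by 0.20 in the Mettl14 comparison, gave 38 that fell and 13 that rose. For the Mettl3 comparison the balance moved with the scaling and the filter: 39 fell and 5 rose with upper-quartile scaling, 34 and 7 with library-total scaling, and 7 and 22 with no filter on low counts. With any single one of the 8 libraries left out, of this line or the other, 9 to 13 fell in Mettl3 cKO, against 20 with all of them. Leaving one out also changed the filter, to 23509 to 24441 tested genes, and the scaling.

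Of 24 partner genes, 20 fell and 2 rose in Mettl14 cKO (median -0.36), and 8 fell and 3 rose in Mettl3 cKO (median -0.04). All 24 were abundant, a class in which 40.9% fell and 25.7% rose in Mettl14 cKO. In Mettl3 cKO 7.05% of that class fell and 29.6% rose. Klf4, a zinc-finger factor used with OCT4 and SOX2 in reprogramming, fell by 1.45 ± 0.04 on the log2 scale in Mettl14 cKO (SE, adjusted p = 1.4e-64). Smarcc1, a core subunit of the BAF chromatin remodeller, fell by 0.82 ± 0.03, and Tet2, a 5-methylcytosine oxidase, by 0.66 ± 0.03 (SE). In Mettl3 cKO, Parp1, an ADP-ribosyltransferase of DNA repair, fell by 0.29 ± 0.03, and Nacc1, a BTB-domain factor that binds NANOG, rose by 0.26 ± 0.04 (SE). Trrap, a scaffold of histone acetyltransferases, rose by 0.16 ± 0.03 (SE), a call lost with upper-quartile scaling (0.05, adjusted p = 0.22).

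NuRD is the deacetylase and remodelling complex that SALL4 and SALL1 bind through their N-terminal motif. Of its 14 genes, 13 fell in Mettl14 cKO and none rose, with a median of -0.39, where 40.9% of abundant genes were called lower, and Cdk2ap1 did not pass the test (-0.10, adjusted p = 0.42). Hdac1 and Hdac2, its deacetylases, each fell by 0.66 on the log2 scale (SE 0.03 and 0.04), and Chd4, its remodelling ATPase, fell by 0.39 ± 0.02 (SE). With library-total scaling 10 fell and 1 rose, and Mta2 changed sign. In Mettl3 cKO 6 of the 14 rose and 1 fell, where 29.6% of abundant genes were called higher and 7.05% lower. All 14 genes were abundant. Gatad2a rose by 0.32 ± 0.04, Mbd2 by 0.32 ± 0.07, and Hdac1 fell by 0.21 ± 0.04 (SE), a call lost with no filter (-0.10, adjusted p = 0.052). The other rises were those of Mbd3, Chd4, Cdk2ap1 and Mta1, of which Chd4 turned negative with upper-quartile or library-total scaling.

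Of 25 known targets, 19 fell and 5 rose in Mettl14 cKO (median -0.37), and 11 fell and 3 rose in Mettl3 cKO (median -0.12). Of the 25 genes 22 were abundant, a class in which 40.9% fell and 25.7% rose in Mettl14 cKO. In Mettl3 cKO 7.05% of that class fell and 29.6% rose. Tdh, a threonine dehydrogenase abundant in mouse stem cells, fell by 1.10 ± 0.04 in Mettl14 cKO (SE, adjusted p = 3.1e-55). Upp1, a uridine phosphorylase, fell by 0.71 ± 0.04, and Phc1, a Polycomb protein, by 0.53 ± 0.03 (SE). The rises in Mettl14 cKO were those of Lefty1 (1.75), Nodal (0.85), Lefty2 (0.54), Gdf3 (0.48) and Tdgf1 (0.12), which encode ligands, inhibitors and a co-receptor of Nodal signalling; this set of 5 was named after its values were seen. In Mettl3 cKO, Spp1, which encodes osteopontin, fell by 0.28 ± 0.03, Dppa5a, an RNA-binding protein gene, by 0.34 ± 0.04 and Fgf4, a growth factor gene with a composite OCT-SOX enhancer, by 0.33 ± 0.04 (SE).

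**Figure D5:**
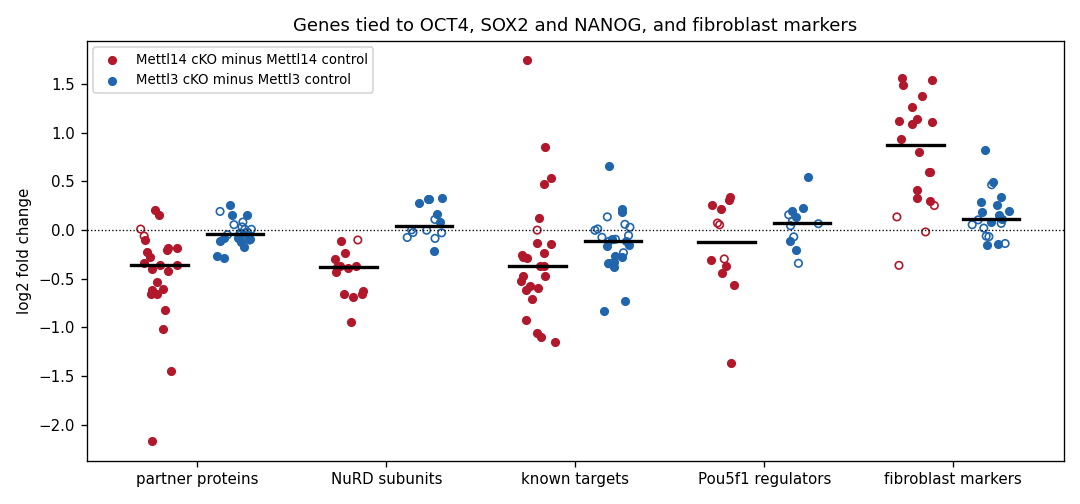
Log2 fold change (vertical axis) of the genes in 5 lists in Mettl14 cKO (red) and Mettl3 cKO (blue), each minus its own control; points are genes, filled where the adjusted p was under 0.05, and lines are medians. The median of the partners is -0.36 in Mettl14 cKO and -0.04 in Mettl3 cKO, and that of the fibroblast markers is 0.87 and 0.11.

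Of 12 genes known to act on Pou5f1, 5 fell and 4 rose in Mettl14 cKO, and 2 fell and 4 rose in Mettl3 cKO. Of the 12 genes 10 were abundant, a class in which 40.9% were called lower and 25.7% higher in Mettl14 cKO. In Mettl3 cKO 7.05% of that class were called lower and 29.6% higher. Tcf7l1, a repressor at Wnt targets, fell by 1.37 ± 0.08 in Mettl14 cKO (SE), Dnmt3b, a DNA methyltransferase, by 0.56 ± 0.04, and Ctnnb1, which encodes β-catenin, rose by 0.34 ± 0.03. Falls in Mettl14 cKO also came from Dnmt3a, Nr5a2 and Ehmt2, and rises from Nr2f2, Stat3 and Nr6a1, while Nr2f1, Nr2c2 and Cdx2 did not pass the test. In Mettl3 cKO, where Pou5f1 rose, its repressor Nr2f2 rose by 0.55 ± 0.10, and Ehmt2, a histone methyltransferase, by 0.19 ± 0.04 (SE), a call lost with upper-quartile scaling (0.08, adjusted p = 0.20). Nr6a1 and Nr2c2 rose there too, and Dnmt3b fell by 0.20 ± 0.04 and Nr5a2 by 0.12. Without Mettl3 cKO replicate 2 the Dnmt3b value was -0.12 (adjusted p = 0.065).

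The other members of the POU, SOX and SALL families were mostly scarce. Among all tested genes 22.4% fell and 18.0% rose in Mettl14 cKO. Of 14 other POU genes 12 could be tested, and 3 fell in Mettl14 cKO. Pou2f1, a widely expressed octamer-binding factor, was the most abundant of them and had a log2 fold change of -0.17 ± 0.03 in Mettl14 cKO (SE, adjusted p = 9.4e-07), which was 0.04 with library-total scaling. Pou6f1 had -0.39 in Mettl14 cKO, at an adjusted p of 0.046, and 0.47 in Mettl3 cKO, calls that DESeq2 did not make (adjusted p = 0.12 and 0.089). The Mettl14 call of Pou6f1 was also lost without Mettl14 cKO replicate 1 (adjusted p = 0.23), Mettl14 cKO replicate 2 (adjusted p = 0.064), Mettl14 control replicate 1 (adjusted p = 0.34) or Mettl3 cKO replicate 1 (adjusted p = 0.05003), and the Mettl3 call without Mettl3 cKO replicate 1 (adjusted p = 0.13). Pou3f2 fell by 0.61 ± 0.18 in Mettl14 cKO (SE), a call lost without Mettl14 cKO replicate 2 (adjusted p = 0.072) or Mettl14 control replicate 1 (adjusted p = 0.074). Pou3f1 had 0.75 in Mettl3 cKO (adjusted p = 0.031), a call lost without Mettl3 cKO replicate 1 (adjusted p = 0.21), Mettl3 control replicate 1 (adjusted p = 0.056) or Mettl3 control replicate 2 (adjusted p = 0.12). Pou2f3 did not pass the test in either comparison (-0.21 and 0.21). Of 18 other SOX genes 15 could be tested, with 4 that fell and 1 that rose in Mettl14 cKO. Sox1, a close relative of Sox2, fell by 0.56 ± 0.08 and Sox12 by 0.76 ± 0.14, while Sox6 rose by 0.67 ± 0.11 (SE). Sox6 had 0.27 in Mettl3 cKO (adjusted p = 0.02), a call lost with upper-quartile scaling (adjusted p = 0.22), without Mettl3 cKO replicate 1 (adjusted p = 0.074) or without Mettl3 control replicate 1 (adjusted p = 0.056). Sox11 fell by 0.12 in Mettl14 cKO and rose by 0.14 in Mettl3 cKO, values that changed sign or call with library-total scaling. The Mettl3 call of Sox11 was also lost without Mettl3 control replicate 1 (0.13, adjusted p = 0.092). Sox4 had 0.07 in Mettl14 cKO (adjusted p = 0.37) and rose by 0.33 ± 0.05 in Mettl3 cKO (SE), and Sox13 did not pass the test in either. Sall2 averaged 12.4 CPM in Mettl14 cKO and 14.4 CPM in Mettl14 control, and 17.1 CPM in Mettl3 cKO and 17.4 CPM in Mettl3 control. Sall3 averaged 26.0 CPM in Mettl14 cKO and 24.7 CPM in Mettl14 control, and 12.4 CPM in Mettl3 cKO and 12.9 CPM in Mettl3 control. Neither Sall2 nor Sall3 passed the test in either knockout, with adjusted p of 0.12 and 0.54 in Mettl14 cKO and 0.89 and 0.74 in Mettl3 cKO.

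Markers of other cell types moved beside these genes. Of 20 fibroblast markers tested, 16 rose and none fell in Mettl14 cKO (median 0.87), and 10 rose and 2 fell in Mettl3 cKO (median 0.11). Of all tested genes 18.0% rose in Mettl14 cKO and 15.1% in Mettl3 cKO, and the median of the abundant genes in Mettl3 cKO was 0.09, close to that of the markers. Among the fibroblast markers the smallest p-values in edgeR's test were those of matrix genes. Col1a2 rose by 1.54 ± 0.03 in Mettl14 cKO and 0.26 ± 0.02 in Mettl3 cKO (SE), and Fbln2 by 1.56 ± 0.03 and 0.34 ± 0.02. The largest called rises in Mettl3 cKO were those of Twist1 (0.82) and Pdgfrb (0.49). The 2 markers that fell in Mettl3 cKO were the collagen gene Col3a1 (-0.16) and Acta2 (-0.14). Col5a2 rose by 1.37 ± 0.03 in Mettl14 cKO and Col1a1 by 0.28 ± 0.02 in Mettl3 cKO (SE). Of 15 primitive endoderm markers tested, 7 rose and none fell in Mettl14 cKO. The smallest p-values in edgeR's test were those of the basement membrane genes Col4a1 (1.05), Sparc (0.71) and Col4a2 (0.98). The other rises were those of Amn (6.45), Cubn (1.38), Hnf4a (1.00) and Lamb1 (0.24). Cubn averaged 10.2 CPM in Mettl14 cKO and 3.92 CPM in Mettl14 control. Amn averaged 0.595 CPM in Mettl14 cKO and had no counts in Mettl14 control. In Mettl3 cKO 4 rose and 1 fell. The fall was that of Lama1, a laminin chain, by 0.72 ± 0.05 (SE, adjusted p = 1.8e-28), and Col4a2 rose by 0.27 and Sparc by 0.18. The defining factors Gata4 and Gata6 were at 2.99 and 3.01 CPM in Mettl14 cKO and 2.94 and 2.44 CPM in Mettl14 control and did not pass the test. Of 11 trophectoderm markers tested, 2 rose and 5 fell in Mettl14 cKO, and 4 rose in Mettl3 cKO. The keratin genes Krt8 and Krt18 rose by 0.43 and 0.51 in Mettl14 cKO, and Tfap2a, a transcription factor gene, fell by 1.71. In Mettl3 cKO Krt8 rose by 0.22, Gata3 by 0.39 and Ascl2 by 0.78, the Gata3 value being 0.25 (adjusted p = 0.16) without Mettl3 control replicate 2. Of 9 mesoderm markers tested, none was called in Mettl14 cKO and 1 rose in Mettl3 cKO, with a sum of at most 17.9 CPM in any library. Of 8 neuroectoderm markers tested, 1 rose and 3 fell in Mettl14 cKO, and 1 fell in Mettl3 cKO. Olig2 fell by 1.04 ± 0.12 in Mettl14 cKO and Nes rose by 0.21 ± 0.06 (SE), a call lost without Mettl14 cKO replicate 2 (0.17, adjusted p = 0.056) or Mettl14 control replicate 2 (0.17, adjusted p = 0.068). Of 10 genes of the later, primed epiblast, 7 fell and 1 rose in Mettl14 cKO, and 5 fell and 2 rose in Mettl3 cKO. Of all tested genes 22.4% fell in Mettl14 cKO and 5.78% in Mettl3 cKO, and of the abundant genes 40.9% and 7.05%. Dnmt3b, Dnmt3a (-0.45) and Zic5 (-0.86) were among the falls in Mettl14 cKO. The rise there was that of Fgf5 (1.02, adjusted p = 0.038 in edgeR's test). Fgf5 averaged 1.55 CPM in Mettl14 cKO and 0.761 CPM in Mettl14 control. Dnmt3l had -0.12 in Mettl3 cKO (adjusted p = 0.0016), a call lost without Mettl3 cKO replicate 1 (adjusted p = 0.32), Mettl3 control replicate 1 (adjusted p = 0.24), Mettl14 cKO replicate 1 (adjusted p = 0.059) or Mettl14 control replicate 2 (adjusted p = 0.053), and with no filter (-0.02, adjusted p = 0.87). The part of these cell types in the changes of Pou5f1, Sox2, Nanog and Sall1 was not tested.

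The genes whose profile over the 8 libraries was most like that of Sox2, Nanog, Sall4 or Sall1 were found by the root mean squared difference of centred log2 CPM, among 9445 abundant named genes. For Sox2 they were Chchd10, Klf4 and Eif3f (differences of 0.18, 0.20 and 0.22). For Nanog they were Kpna2, Gnl3l and Slc25a5, each at 0.05, for Sall4 Tti1, Ric8b and Qrsl1 (0.03 to 0.04), and for Sall1 Oard1, Ak6 and Hist1h1c (0.05 to 0.06). Pou5f1 and Sox2 lay 0.91 apart on this measure, further than Nanog and Sall1 at 0.24. The 8 libraries fall into 4 groups, so likeness follows the group means.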

How the data were processed

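RNA of the nuclear fraction was depleted of ribosomal RNA and made into stranded total RNA libraries, per the labels' protocols. The authors deposited a raw read count for each gene, made against mm10 with HISAT2 2.1.0 and HTSeq among the tools (also CASAVA and Trimmomatic 0.38), per the submitters' processing notes. Which annotation, strand setting and multi-mapping rule applied is not given in the sources used here; genes that overlap, and copies, may therefore share or lose reads. IDs were matched without version to GENCODE M21 (54409 of 54446 had a symbol); 0 rows named no gene. Groups and replicate numbers come from the sample titles.

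Genes passing filterByExpr (minimum count 10; 21782 genes) were fitted in edgeR 4.0.16 (R 4.3.3; TMM, robust glmQLFit, glmQLFTest) with 4 group means over 8 libraries, 4 residual degrees of freedom and Benjamini-Hochberg adjustment over all tested genes. Alternatives were RLE, upper-quartile and library-total scaling, no filter, DESeq2 1.42.0, limma 3.58.1 (voom), a fit per line, a replicate block and leaving out each library; library-total scaling and the alternatives for gene lists were chosen after seeing the data. The test was tested on simulated data. Replicates of a group differed by more than sampling noise (chi-square per degree of freedom 1.41 to 1.97). The spread beyond that noise was small, with a common dispersion of 0.000571 in edgeR. Neither value tells whether libraries of one group stem from different cultures. The main fit did not pair libraries by replicate number, and replicate deviations hardly correlated between a knockout and its control.

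The members and gene lists were chosen with earlier results of these data known. From each list the text names, per knockout, the up to 3 called genes of smallest p whose log2 CPM averaged 1 or more; for lists of at most 14 genes others are named to account for the list, and POU and SOX genes whose log2 CPM averaged 3 or more. Further fibroblast and primitive endoderm markers are named for the direction or size of their values, after these were seen. Lists got counts and medians and no set test. The genes most like Pou5f1 in profile are not reported here.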

Additional observations from a re-analysis of the deposited data

Results flagged for a closer look

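For 3 of the 5 genes the effect of the Mettl14 knockout differed from that of the Mettl3 knockout by the test of the difference itself. The Mettl14 change minus the Mettl3 change was -1.61 ± 0.05 on the log2 scale for Pou5f1 (SE, edgeR's test, adjusted p = 1.2e-61), which fell in Mettl14 cKO and rose in Mettl3 cKO. It was -1.97 ± 0.09 for Sox2 (SE, adjusted p = 2.8e-42), and -0.70 ± 0.13 for Sall1 (SE, adjusted p = 4.1e-06). Of all tested genes 33.2% were called in this comparison, and of the abundant genes, to which all 5 belong, 55.0%. The share of the 5 genes called was thus near that of the abundant genes. The lines also differed in their controls, with Pou5f1 7.02-fold higher in Mettl14 control than in Mettl3 control, and whether the knockouts would differ from an equal starting level was not tested.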

How the results depend on the processing

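Over 310 alternative fits of the 5 genes, 285 kept the direction and the side of the threshold and 15 changed sign, of which 1 had been called (Sall4 between the controls). The threshold was passed only in the alternative in 13 fits, 3 of which also changed sign. The calls for Pou5f1, Sox2, Nanog and Sall1 in Mettl14 cKO and for Pou5f1 and Nanog in Mettl3 cKO held in every alternative, with ranges of -1.25 to -1.01, -1.98 to -1.74, -0.47 to -0.23 and -0.69 to -0.41, and of 0.27 to 0.49 and -0.48 to -0.26. Signs changed as follows. With upper-quartile scaling, Mettl3 cKO gave Sox2 -0.087, Sall4 -0.094 and Sall1 -0.031, and the difference between the knockouts gave Nanog 0.090 and Sall4 0.074. With library-total scaling, Sall4 gave 0.14 in Mettl14 cKO and -0.13 between the controls, Mettl3 cKO gave Sox2 -0.059, Sall4 -0.066 and Sall1 -0.0028, and the difference gave Nanog 0.22 and Sall4 0.21; of these, Sall4 in Mettl14 cKO, Sall4 between the controls, and both differences were called. With only the Mettl3 libraries fitted, Sox2 gave -0.012 and Sall4 -0.019 in Mettl3 cKO. Leaving out single libraries gave Sall4 -0.0018 to 0.12 in Mettl3 cKO. Sall4 was called in Mettl3 cKO with no filter (0.13) and without Mettl3 cKO replicate 2 (0.12), and in the difference with no filter (-0.19) and without replicate 2 of any single group (-0.18 to -0.14); Nanog was called in the difference with no filter (-0.18). The cause was not tested. Upper-quartile scaling moved the median of all genes by -0.11 in Mettl3 cKO, 0.16 in the difference and -0.22 between the controls, and library-total scaling moved it by 0.20, -0.08, 0.29 and -0.45 in the order Mettl14, Mettl3, difference, controls. The share of called genes that were higher was 44.6% in Mettl14 cKO (71.8% with library totals), 72.3% in Mettl3 cKO (31.8% with upper quartile, 91.2% with no filter, 41.9% with library totals), 38.4% in the difference (60.6%, 26.0% and 77.5%) and 49.7% between the controls (37.4% with upper quartile, 25.0% with library totals). DESeq2 called 2138 genes in Mettl3 cKO, against 4552 in edgeR, and 4575 for the difference, against 7238. By gene length, 2 of 5 genes kept their rank in Mettl14 control, 3 in Mettl3 cKO and 1 in Mettl3 control. Of the 63 partner, NuRD and target genes, 13 rose in Mettl14 cKO with library totals. In Mettl3 cKO 5, 22 and 7 rose and 39, 7 and 34 fell with upper quartile, no filter and library totals, and 9 to 13 fell with a library left out. Of 928 alternative fits of the 58 results that the naming rule chose from the lists, 876 kept their call, 51 lost it and 1, Pou2f1 in Mettl14 cKO with library totals (0.036), changed sign. The deviation of replicate 1 from its group mean, over 10099 abundant genes, was compared between each knockout and its control. These deviations correlated at -0.032 in the Mettl14 line and 0.072 in the Mettl3 line. With a replicate block 8834, 4618, 7278 and 14754 genes were called in the same order of comparisons, and no call of the 5 genes changed. Each of the 5 genes had at least 245 counts in every library.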
